A study of Mus musculus with 2 samples.

Results

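The genes described here encode the proteins of the cytosolic ribosome. They were chosen by symbol alone, as every feature whose name begins with Rpl or Rps and a digit, together with Rplp0, Rplp1, Rplp2 and Rpsa, without the Rps6k kinases and without -ps pseudogenes. The rule took 86 of 32286 features, 52 with large subunit symbols and 34 with small subunit symbols. Of these, 77 are called core members here, 46 large and 31 small. The other 9 are paralogs or similarly named genes (Rpl3l, Rpl7l1, Rpl10l, Rpl22l1, Rpl36al, Rpl39l, Rps27l, Rps27rt and Rps19bp1). Fau and Rack1 also give ribosome components, but their symbols fall outside the rule, and their values are given separately.

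The study profiled single hematopoietic cells of mouse bone marrow with 10x Genomics 3′ libraries, 1 library per group, to compare expression after overexpression of MYC. The control library has the genotype Mx1Cre+/-;Rosa26+/+ and the MYC library the genotype Mx1Cre+/-;Rosa26LSL-MYC/LSL-MYC, so that both groups carry the Cre transgene. Mx1-Cre is driven by an interferon-inducible promoter that is active in many tissues besides blood, and LSL denotes a stop cassette that Cre removes, which releases MYC from the Rosa26 locus. The number, age and sex of the animals, any induction treatment and its timing are not given in the sources used here.

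Each cytosolic ribosome joins a small subunit, which reads the mRNA, with a large subunit, which forms peptide bonds, and each core protein is present in a single copy or nearly so, except the stalk proteins. Most ribosomal protein mRNAs start with a run of pyrimidines, the terminal oligopyrimidine (TOP) tract, through which mTORC1 signalling controls their translation. MYC is known as an activator of ribosomal RNA, ribosomal protein and ribosome biogenesis genes. In blood, heterozygous loss of single ribosomal protein genes causes Diamond-Blackfan anaemia, a failure of red cell production.

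The control library held 17073 barcodes and 131884603 UMIs (unique molecular identifiers, each counting 1 captured molecule), and the MYC library 14496 barcodes and 110012176 UMIs. Filters left 14903 control cells (median 5343 UMIs) and 12540 MYC cells (median 6016 UMIs). Cells fell into 29 clusters, of which some were named by marker genes. The 9 classes compared below are the named ones with at least 100 cells in each library. Cells of clusters without a name lie outside them. Every class name below stands for cells like that type. Barcodes with at least 10% mitochondrial UMIs were left out, 9.42% of the control and 11.0% of the MYC barcodes. The libraries shared 97 barcode sequences, 79 of them kept in each, and leaving these out left the share of ribosomal protein UMIs over all kept cells at 11.2% and 16.7%. With 1 library per group, there was no replicate and no test: a difference between libraries cannot be told apart from a difference between conditions, and every interval below covers counting error only.

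Ribosomal protein genes gave a larger share of UMIs in the MYC library in all 9 classes. Stem or multipotent progenitors had the highest shares, 20.6% of UMIs in 205 control cells and 29.2% in 179 MYC cells. Granulocyte progenitors followed, with 20.4% in 557 and 26.5% in 506 cells. The share was far lower along the neutrophil lineage in each library. It was 4.93% in 2142 and 8.86% in 2010 immature neutrophils, and 2.44% in 2925 and 4.31% in 2452 mature neutrophils, the lowest of the 9 classes. Monocytes had 16.6% in 1227 and 24.0% in 1551 cells.

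Lymphoid, basophil and erythroid cells lay between these ends. The B lineage had 9.89% in 1239 control and 18.6% in 243 MYC cells, and T or NK cells 14.1% in 400 and 21.4% in 151 cells. Basophils or mast cells had 14.5% in 190 and 21.4% in 145 cells. Erythroid cells had 14.2% in 1364 and 24.8% in 424 cells. The fold between libraries ran from 1.30 in granulocyte progenitors to 1.89 in the B lineage, with a median of 1.52 over the classes. The order of the classes was nearly kept, with stem or multipotent progenitors at the top and mature neutrophils at the bottom in each library. The counting intervals were narrow, as for the log2 ratio of 0.50 (0.497 to 0.505) in stem or multipotent progenitors.

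**Figure D1:**
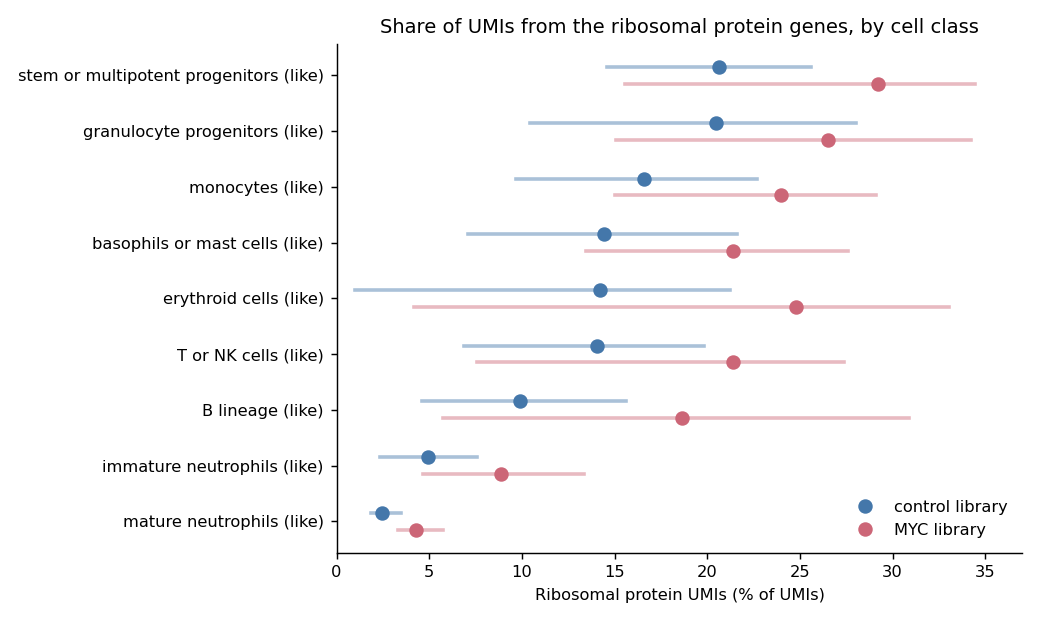
Share of UMIs from the 86 ribosomal protein genes (% of UMIs, x axis) in each of the 9 cell classes, control library in blue and MYC library in red. Points are the summed shares and lines span the 10th to 90th percentile over cells; the point of the MYC library lies to the right of the control point in all 9 classes, from 2.44% and 4.31% in mature neutrophils to 20.6% and 29.2% in stem or multipotent progenitors.

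The spread over cells was wide and the libraries overlapped at the level of single cells, as the plot of shares by class shows. In stem or multipotent progenitors the 10th, 50th and 90th percentiles over cells were 14.6%, 19.6% and 25.6% for control cells and 15.6%, 29.9% and 34.5% for MYC cells. In mature neutrophils they were 1.84%, 2.43% and 3.48% against 3.34%, 4.24% and 5.76%. Expressed as UMIs per cell, ribosomal protein UMIs differed by 1.15-fold in T or NK cells and by 2.38-fold in mature neutrophils, the lowest and highest of the classes. Total UMIs per cell differed by 0.754-fold and 1.35-fold in those same classes.

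Some classes pooled cells that differed in makeup between libraries. Mature neutrophils came from 4 clusters, and different clusters held most of them in each library. Clusters 5 and 7 had 1351 and 1323 control cells but 146 and 149 MYC cells, with ribosomal protein shares of 2.73% and 5.01% in cluster 5 and 2.26% and 4.51% in cluster 7. Clusters 6 and 10 had 161 and 90 control cells but 1336 and 821 MYC cells, with 2.28% and 4.27% in cluster 6 and 2.34% and 4.24% in cluster 10. Within the B lineage, mature B cells had 13.3% in 584 control and 26.6% in 140 MYC cells. Plasma cells had 6.39% in 250 and 15.7% in 87 cells, and B progenitors 11.9% in 405 but only 16 cells in the MYC library, with 16.3%. Within the erythroid class, early cells had 15.7% in 974 and 26.5% in 288 cells, and late cells 1.78% in 390 and 6.80% in 136 cells. The late cells had medians of 6151.5 UMIs (control) and 2260.5 UMIs (MYC), and neutrophil markers summed to 21512 and 53455 CPM there, CPM being a feature's UMIs scaled to a total of 1000000 per class and library. The part of this depth and marker difference in the result was not tested.

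In 3 smaller classes the summed share is described. Macrophages had 8.45% in 73 control and 21.8% in 666 MYC cells. These too came from different clusters, with 10.2% in 22 control and 22.1% in 638 MYC cells of cluster 13, and 7.66% in 51 and 13.7% in 28 cells of cluster 28. Shares were, for megakaryocytes 5.92% in 59 and 15.1% in 60, and plasmacytoid dendritic cells 11.4% in 257 and 22.2% in 74. All 3 had the higher share in the MYC library.

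Other values differed between the libraries too. Gm42418, a feature that overlaps a ribosomal RNA repeat, took 141410 CPM over all kept control cells and 74870 CPM in the MYC library, and the mitochondrial share was 3.19% and 2.74%. By cluster the mitochondrial share was lower in the MYC library in 14 of 29, and in mature neutrophils it was 0.807% and 0.970%. Leaving Gm42418 out of the totals gave log2 share ratios of 0.36 in granulocyte progenitors and 0.37 in stem or multipotent progenitors as the lowest, and 0.81 in immature neutrophils as the highest. Of the 29 clusters, 28 had the higher ribosomal protein share in the MYC library. The exception was a low-depth cluster of 100 control and 168 MYC cells, with 11.7% and 8.87% of summed UMIs; there the median over cells had the other direction, 4.29% and 8.14%. Gm42418 was more abundant in the MYC library in 3 clusters. Of these, 2 had the higher ribosomal protein share there, and the other was that low-depth cluster. The part of Gm42418 in the share was not tested. The summed CPM of 23 neutrophil markers was 13180 and 21497 in the B lineage, 11982 and 14351 in erythroid cells, 18569 and 14210 in monocytes, and 11653 and 7226.6 in stem or multipotent progenitors. The part of these markers in the share was not tested. None of the 23 markers was at 0 in either library of the B lineage.

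Gene by gene, a member was called higher or lower when its CPM in a class differed by at least 1.5-fold (0.585 on the log2 scale) between libraries, among features with at least 50 UMIs in the libraries together. No member was called lower in any class, while among all features those called lower outnumbered those called higher in each of the 9 classes. With median-of-ratios scaling the balance over all features turned in all 9, as with 20.7% higher and 19.4% lower in the B lineage and 15.5% and 7.53% in immature neutrophils. The share of all features called is given beside each count as its background. In stem or multipotent progenitors 37 of 83 members were called higher, against 6.71% of all features higher and 13.1% lower. In granulocyte progenitors the count was 24 of 83, against 4.57% higher and 25% lower. These counts moved with the settings. In granulocyte progenitors 51 members were called higher in cells under 5% mitochondrial UMIs, against 10.4% of all features. With median-of-ratios scaling there were 49, against 14.5% of all features higher and 7.79% lower. Without Gm42418 in the totals, stem or multipotent progenitors had 22, against 3.51% higher. Immature neutrophils had 64 of 85, against 8.74% higher and 17.8% lower, and mature neutrophils 67 of 84, against 8.85% and 23.6%.

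In monocytes 42 of 85 members were called higher, against 8.19% of all features higher and 16.7% lower, and with coarser clusters, at a Leiden resolution of 0.5, 19 were, against 6.03% higher. The B lineage had 60 of 83, against 7.97% and 43.5%, and its mature B cells 64 of 83, against 7.06% and 29.5%. T or NK cells had 48 of 83, against 10.4% and 15.1%. Basophils or mast cells had 45 of 83, against 9.08% and 20.8%. Erythroid cells had 58 of 83, against 13.9% and 19.0%. Among early erythroid cells 57 of 83 were higher, against 12.5% and 20.7%. Late erythroid cells had 79 of 80, against 30% and 26.2%, so that there calls were frequent among all features too. Calls were also more frequent among other protein-coding features of short coding length, a small part of all features. Under 400 coding bases, 11.0% (granulocyte progenitors) to 30.3% (T or NK cells) were called higher over the 9 classes. From 400 to 600 bases it was 12.5% to 26.7%, with the same classes at the ends. At 600 bases or more it was 2.81% to 11.0%. Of the 77 core members, 25 were under 400 bases and 30 of 400 to 600.

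The median log2 ratio of the members was above that of all features tested in each class. The members' median was lowest in granulocyte progenitors, 0.42 beside -0.29 for all features, and highest in the B lineage, 0.92 beside -0.48. It was 0.90 beside -0.21 in immature neutrophils, 0.58 beside -0.15 in monocytes and 0.86 beside -0.09 in erythroid cells. Because CPM are parts of a fixed total, the distance between these medians is read here rather than the members' value alone.

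The subunits differed little. The sum of large subunit UMIs divided by that of small subunit UMIs was 1.18 in control and 1.17 in MYC stem or multipotent progenitors. Of the 9 classes it was lowest in neutrophils, 1.06 and 1.07 in immature and 1.06 and 1.03 in mature cells, and highest in erythroid cells, 1.24 and 1.21. Between libraries the ratio moved by -0.04 on the log2 scale (-0.046 to -0.028) in mature neutrophils and by 0.02 (0.014 to 0.027) in the B lineage, the ends of the range over the 9 classes. The makeup of the B lineage differed between libraries, and its mature B cells had -0.05 (-0.066 to -0.044) and its plasma cells 0.04 (0.034 to 0.053). In T or NK cells the interval of the change, -0.021 to 0.001, included 0. The spread between the 9 classes within a library was therefore wider than any of their changes between libraries.

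The median log2 ratios of the subunits were close too. In immature neutrophils each subunit's median was 0.90, in the B lineage each was 0.92, and in stem or multipotent progenitors it was 0.52 for the large and 0.57 for the small subunit. The widest gaps had opposite signs, 0.72 for the large and 0.65 for the small subunit in T or NK cells and 0.88 and 0.95 in mature neutrophils. In mature neutrophils 39 of the 50 large and 28 of the 34 small members tested were called higher.

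Single genes differed from each other far more than the subunits did. Of the 77 core members, 61 were higher in the MYC library in all 9 classes, counting any difference, against 10.6% of the 5574 features tested in all of them. At least 1.5-fold higher in all 9 classes were 24 members, 15 large and 9 small, against 0.843% of those features. They are the 24 members called in granulocyte progenitors, and their number moved with the settings as well. It was 37 in cells under 5% mitochondrial UMIs, 45 with median-of-ratios scaling and 0 at 2-fold. With cells named by markers alone it was 17, against 0.697% of features. Without Gm42418 in the totals it was 18, against 0.466%, and without the 20 most abundant features also 18, against 0.592%. Rpl3 was not among the members in any of these last settings. The 24 include Rpl3, Rpl10, Rpl11, Rpl14, Rpl15, Rpl18, Rpl19, Rpl29, Rpl32, Rplp0, Rps2, Rps3, Rps10, Rps13, Rps18 and Rpsa. At least 1.5-fold higher in no class were 10 members, 6 large and 4 small, against 74.4% of those features: Rpl31, Rpl37, Rpl37a, Rpl38, Rpl41, Rplp2, Rps21, Rps26, Rps27 and Rps29. This holds for the 9 classes only: in late erythroid cells, within the erythroid class, all 10 reached the fold, from 0.82 for Rpl41 to 1.41 for Rpl31 on the log2 scale. The remaining 43 reached the fold in 1 to 8 classes. As a share of the summed ribosomal protein UMIs, 30 core members were higher in the MYC library in all 9 classes and 15 were lower in all 9.

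**Figure D2:**
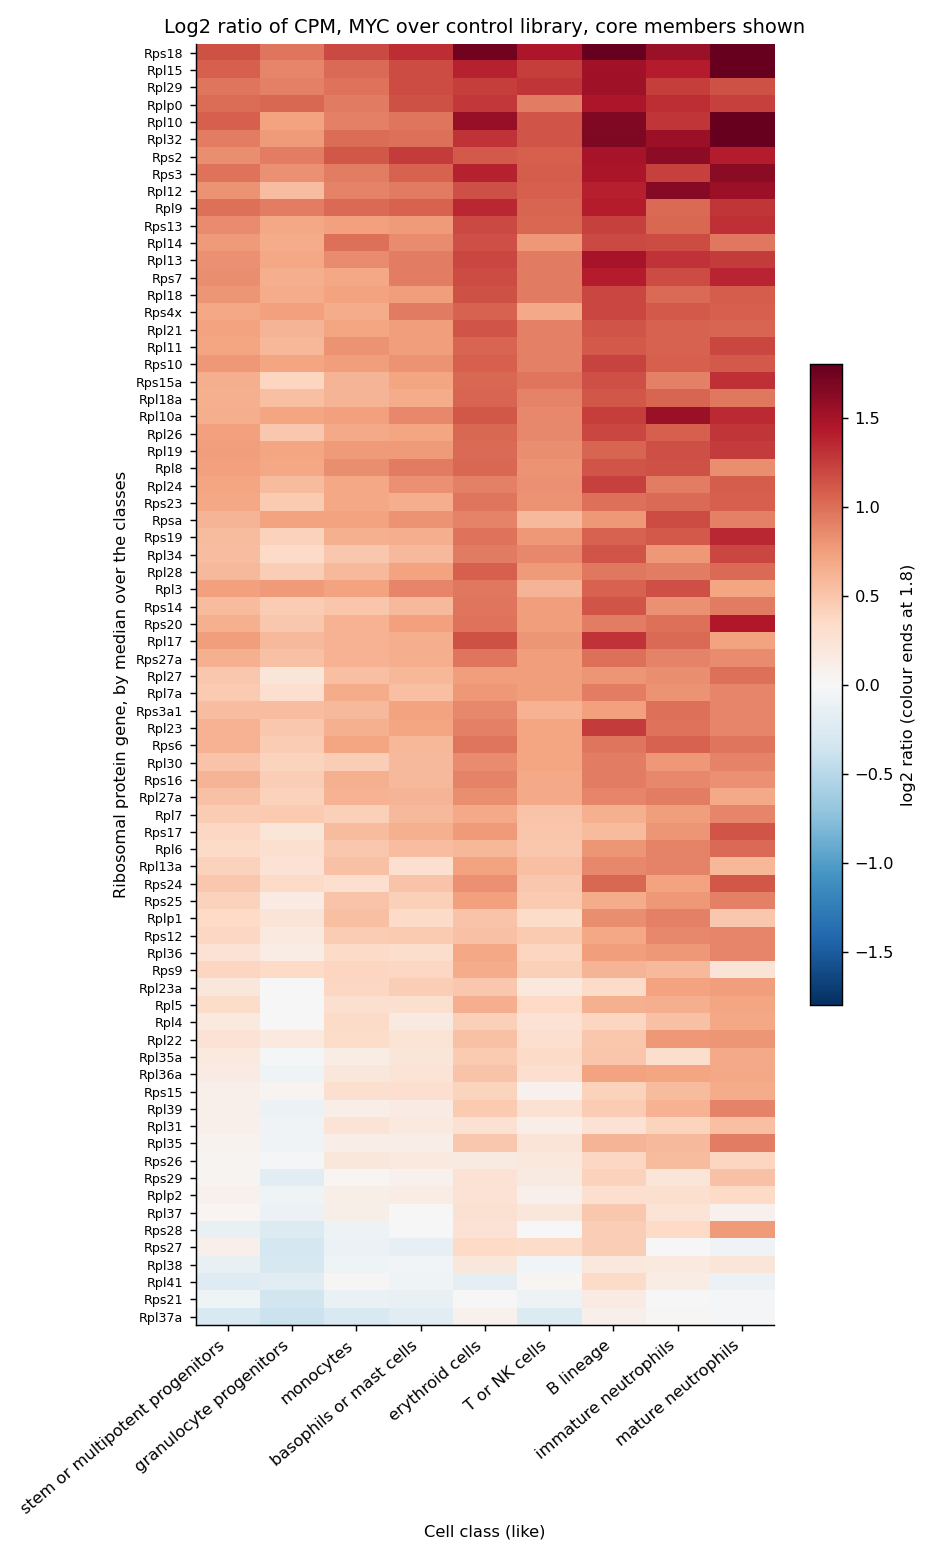
Log2 ratio of CPM, MYC over control library, for 74 core members (rows, ordered by their median over classes) in the 9 cell classes (columns); red is higher and blue lower in the MYC library, and colours end at 1.8. Rps18, at 2.09 in mature neutrophils, is the top row, and Rpl37a, at -0.39 in granulocyte progenitors, is the bottom row.

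Rps18 lies at the head of the small subunit, where the subunits meet, and had the largest log2 ratio of the members above 100 CPM in most classes. Its gene is at chr17:33951999-33956001 on the minus strand (GRCm38, GENCODE vM21). Rps18 was at 2228 CPM in control and 4949 CPM in MYC stem or multipotent progenitors, and at 2269 and 4432 CPM in granulocyte progenitors. It was at 417 and 1225 CPM in immature neutrophils, 76.6 and 326 CPM in mature neutrophils, and 1628 and 3717 CPM in monocytes. In the B lineage Rps18 was at 810 and 3389 CPM, in T or NK cells at 1331 and 3652, in basophils or mast cells at 1292 and 3230, and in erythroid cells at 1451 and 4825. Each MYC value was thus above its control value. The log2 ratio of Rps18 was 0.97 (0.944 to 0.988) in granulocyte progenitors, its lowest, and 2.09 (1.98 to 2.20) in mature neutrophils, its highest. Of the 60-base words in the last 300 bases of the Rps18 transcript, 73.4% also occur in another feature, so its counts are uncertain; those features, Gm10260 and Gm11361, held at most 110 UMIs in a library.

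Rpl37a, a zinc-binding protein of the large subunit at chr1:72711290-72713813 on the plus strand, showed the opposite end. Rpl37a was at 3995 CPM in control and 3318 CPM in MYC stem or multipotent progenitors, 4737 and 3617 in granulocyte progenitors and 3410 and 2831 in monocytes. It was at 1247 and 1263 CPM in immature and 733 and 720 CPM in mature neutrophils. Among lymphoid cells, the B lineage had 2310 and 2469 CPM of Rpl37a and T or NK cells 3686 and 3121 CPM, and elsewhere it was at 3435 and 2969 CPM in basophils or mast cells and 2605 and 2739 CPM in erythroid cells. The MYC value was the lower in 6 of these 9 classes. Its log2 ratio ran from -0.39 (-0.409 to -0.370) in granulocyte progenitors to 0.10 (0.056 to 0.136) in the B lineage. Without Gm42418 in the totals, the ratios of 0.10 in the B lineage and 0.07 in erythroid cells turned to -0.14 and -0.08. As a share of the ribosomal protein sum, Rpl37a was at 1.94% and 1.14% in stem or multipotent progenitors.

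Rpl15 and Rps2 were among the members at least 1.5-fold higher in all 9 classes. Rpl15, a large subunit protein, was at 1524 and 3202 CPM in stem or multipotent progenitors, 76.1 and 279 in mature neutrophils and 953 and 2495 in erythroid cells. Rps2, a small subunit protein near the mRNA entry channel, was at 2308 and 4123, 104 and 277, and 2296 and 4918 CPM in the same classes. Rps21 and Rpl41 came from the other end, with log2 ratios from -0.33 in granulocyte progenitors to 0.15 in the B lineage for Rps21 and from -0.23 in stem or multipotent progenitors to 0.34 in the B lineage for Rpl41. Rps21 was at 3198 and 3023 CPM in stem or multipotent progenitors and 439 and 427 CPM in mature neutrophils. Rpl41, a very short peptide, was at 4603 and 3915 CPM and at 756 and 701 CPM there.

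UMIs in 3′ libraries count molecules and are not divided by length. On that scale the members with the highest level over all kept control cells included Rps29 (3804 CPM, 4229 in the MYC library), Rpl41 (2966 and 2584), Rps12 (2575 and 3585) and Rplp1 (2505 and 3293). The 3 core members with the lowest level were Rpl29 (518 and 1055), Rpl10 (558 and 1237) and Rpl4 (677 and 810).

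The 2 sets of core members also differed in coding length, which the rule did not use. Coding lengths were those of the principal GENCODE transcript, and this comparison was chosen after the values had been seen. The 24 members at least 1.5-fold higher in all 9 classes had coding lengths of 405 to 1209 bases, with a median of 612. The 10 members that reached the fold in no class had 75 to 375 bases, with a median of 264, beside a median of 456 over the core. All 10 were under 400 bases, and none of the 24 was. Under 400 bases were 2 of the 37 members of the first set in cells under 5% mitochondrial UMIs and 4 of 45 with median-of-ratios scaling, which left 1 member in the second set, of 276 bases. Without Gm42418 in the totals the second set had 11 members, of up to 582 bases, and at 2-fold 21 of its 35 members were under 400 bases.

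The median over the shortest core members was the lowest of the 3 length bins in all 9 classes, while from the middle to the longest bin it was higher in 4 classes and lower in 5. In granulocyte progenitors the median log2 ratio was -0.06 over the 25 core members under 400 bases, 0.53 over the 30 of 400 to 600 bases and 0.70 over the 22 of 600 bases or more. Among other protein-coding features the medians were 0.14, 0.17 and -0.35, lowest in the longest bin. In monocytes the members' medians were 0.20, 0.66 and 0.72, and those of other features 0.24, 0.24 and -0.20. In the B lineage they were 0.48, 1.12 and 1.10 beside -0.03, -0.09 and -0.55. Short members thus lay near other short features in granulocyte progenitors and monocytes, and the distance from other features was wider among longer members.

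Across the 77 core members, Spearman's rho of the log2 ratio with coding length was between 0.39 in mature neutrophils and 0.69 in granulocyte progenitors. Across other protein-coding features it lay between -0.50 and -0.33. These are correlations across genes that share libraries, cells and totals, and genes are not independent replicates.

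**Figure D3:**
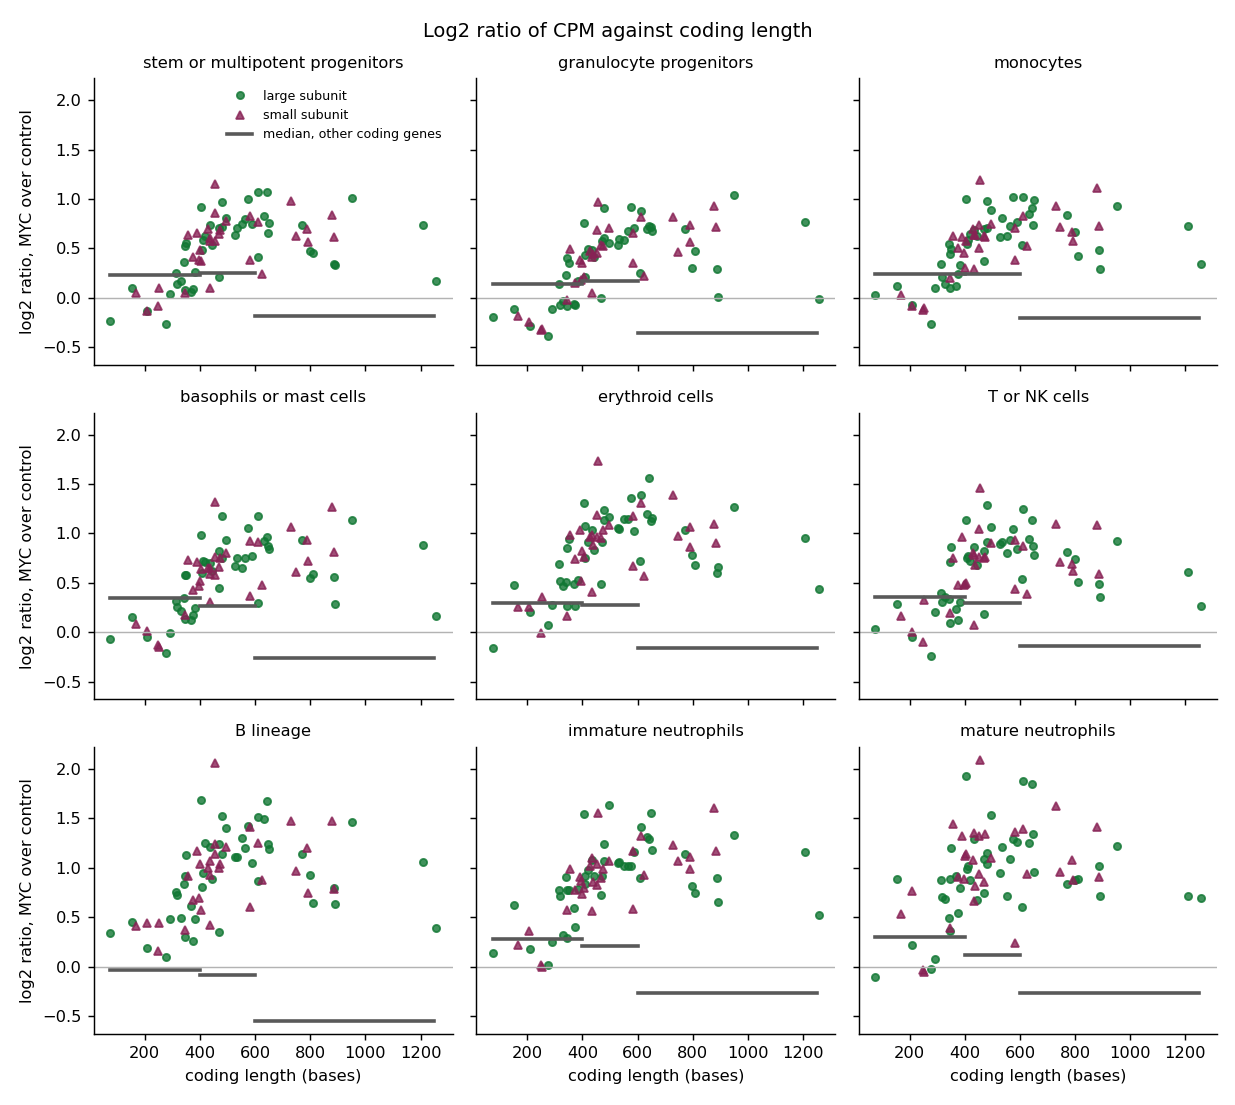
Log2 ratio of CPM, MYC over control library (y axis), against coding length in bases (x axis) for the 77 core members in each of the 9 cell classes, circles for large and triangles for small subunit. Grey lines are the medians of other protein-coding features under 400, of 400 to 600 and of at least 600 bases, the last drawn only to the range of the members; in granulocyte progenitors members of at least 600 bases have a median of 0.70 and other features -0.35.

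Start site sequences were compared for the 66 members with a RefSeq promoter entry (GRCm38.p6). The windows below cover the 30 bases before the annotated start and 20 bases from it, 5′ to 3′ on the gene's strand, with a pyrimidine tract in capitals. The tract is a C followed by at least 4 C or T bases and begins within 10 bases of the start. The first 5 belong to members at least 1.5-fold higher in all 9 classes and the last 5 to members that reached the fold in no class. They are shown because a tract stands near the start in either set. The tracts of Rps18 and Rps27 end before the annotated start, and those of Rpl18, Rps2 and Rps26 begin after it.
Rps18 (chr17:33955646-33955695, minus): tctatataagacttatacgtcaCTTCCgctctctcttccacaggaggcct
Rpl15 (chr14:18270967-18271016, minus): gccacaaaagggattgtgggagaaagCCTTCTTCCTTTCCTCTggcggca
Rpl18 (chr7:45718041-45718090, plus): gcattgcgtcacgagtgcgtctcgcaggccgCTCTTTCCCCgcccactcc
Rps10 (chr17:27635225-27635274, minus): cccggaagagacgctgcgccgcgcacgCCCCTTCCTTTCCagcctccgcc
Rps2 (chr17:24720033-24720082, plus): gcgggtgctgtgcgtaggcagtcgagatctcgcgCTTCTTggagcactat
Rps21 (chr2:180257349-180257398, plus): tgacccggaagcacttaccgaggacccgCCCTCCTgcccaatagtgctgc
Rps27 (chr3:90213629-90213678, minus): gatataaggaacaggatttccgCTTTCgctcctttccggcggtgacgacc
Rplp2 (chr7:141447621-141447670, plus): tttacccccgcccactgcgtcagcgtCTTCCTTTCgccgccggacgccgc
Rps26 (chr10:128626487-128626536, minus): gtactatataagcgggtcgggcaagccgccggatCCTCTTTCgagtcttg
Rpl31 (chr1:39367821-39367870, plus): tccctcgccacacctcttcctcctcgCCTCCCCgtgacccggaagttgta

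A tract was found for 40 of the 66 genes (60.6%), beside 34.4% of all genes with a promoter in the table. It was found for 9 of the 18 members with an entry among those at least 1.5-fold higher in all 9 classes, and for 6 of 9 among those that reached the fold in no class. Annotated starts can differ from the starts used in these cells, so a missing tract says only that these letters are not in the window. The median log2 ratio of core members with and without a tract was 0.56 and 0.64 in monocytes but 0.94 and 0.92 in the B lineage, so the order differed between classes.

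CACGTG, the E-box bound by MYC with its partner MAX, was searched from 250 bases before to 50 bases after the start; it reads the same on either strand. It was present for 6 of the 66 genes (9.09%), beside 8.09% of all genes. The pair nearest to a start is shown with the motif in capitals, since MYC is the protein overexpressed in this study.
Rpl19 (chr11:98026669-98026718, plus): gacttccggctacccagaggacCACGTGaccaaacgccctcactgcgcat
Rpl23 (chr11:97782415-97782464, minus): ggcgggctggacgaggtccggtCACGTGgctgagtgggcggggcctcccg
The other 4 were Rpl13a, Rpl14, Rpl34 and Rps19. Core members with the motif had a median log2 ratio of 0.64 in monocytes, 1.10 in the B lineage and 0.60 in stem or multipotent progenitors. The 51 without it in their entries had 0.59, 0.88 and 0.53. The motif CCGGAAG, part of sites of ETS family factors, was present on either strand for 26 of the 66 genes (39.4%), beside 9.93% of all genes. The motif AAGATGGC, part of the YY1 site, was present for 6 (9.09%), beside 3.19%. A match describes letters only, not binding.

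The stalk of the large subunit recruits elongation factors and consists of Rplp0, its base, and Rplp1 and Rplp2. These partners did not move alike. Rplp0 was at 2273 and 4572 CPM in stem or multipotent progenitors, 2431 and 4996 in granulocyte progenitors, 282 and 659 in mature neutrophils and 2284 and 5516 in erythroid cells. Its log2 ratio was between 0.92 in T or NK cells and 1.46 in the B lineage. Rplp1 had ratios from 0.23 in granulocyte progenitors to 0.90 in immature neutrophils. Rplp2 stayed between -0.08 in granulocyte progenitors and 0.36 in mature neutrophils; it was at 3005 and 3170 CPM in stem or multipotent progenitors. In all 9 classes Rplp0 had the highest and Rplp2 the lowest ratio of the stalk.

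Rpl5 and Rpl11 bind the smallest ribosomal RNA of the large subunit, and outside the ribosome that particle inhibits Mdm2, the ubiquitin ligase of p53. Rpl11 was at 2322 and 3801 CPM in stem or multipotent progenitors and 226 and 521 CPM in mature neutrophils, with log2 ratios from 0.60 in granulocyte progenitors to 1.21 in mature neutrophils. Rpl5 was at 1844 and 2323 CPM and at 151 and 247 CPM in those cells, with ratios from 0.01 in granulocyte progenitors to 0.71 in mature neutrophils. Rpl11 had the higher ratio of the pair in all 9 classes.

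Rps19 is the gene most often mutated in Diamond-Blackfan anaemia, Rps14 is the gene tied to the anaemia of a chromosome arm deletion in myelodysplasia, and Rps6 is the substrate of the S6 kinases. All were higher in the MYC library in each class. Rps19 was at 3726 and 5542 CPM in stem or multipotent progenitors and 2113 and 4178 CPM in erythroid cells, and its log2 ratio ran from 0.42 in granulocyte progenitors to 1.35 in mature neutrophils. Rps14 was at 3164 and 4708 CPM and at 1857 and 3621 CPM in those classes, with ratios from 0.46 to 1.14. For Rps6 the values were 2211 and 3415 CPM and 1424 and 2789 CPM, with ratios from 0.46 to 1.07. Of 19 Diamond-Blackfan anaemia ribosomal protein genes, 12 were called higher and 0 lower in erythroid cells, against 13.9% of all features higher and 19.0% lower, with a median of 0.76. Over all members, which include these 19, 58 of 83 were called higher in erythroid cells, with a median of 0.86. Rpl15 was highest of the 19 genes in all 9 classes, with 1.39 in erythroid cells, where Rps26 was lowest with 0.17.

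Paralogs differed from their partners in level and in some cases in ratio. Rpl22, a large subunit protein, had log2 ratios of 0.26 in stem or multipotent progenitors, 0.30 in T or NK cells and 0.24 in basophils or mast cells, and Rpl22l1 0.46, 0.92 and 0.78. Rpl22l1 was at 326 and 618 CPM in T or NK cells. Rpl22l1 had the higher ratio in 8 of the 9 classes; in mature neutrophils Rpl22 had 0.79 and Rpl22l1 0.57. Rpl36a and Rpl36al were near each other, with 0.51 and 0.40 in erythroid cells. Rpl7 had 0.45 in stem or multipotent progenitors and Rpl7l1, a nucleolar relative, 0.16. Rpl7l1 was at 38.0 and 31.8 CPM in the B lineage, where the counting interval of its log2 ratio, -0.62 to 0.09, included 0.

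Rps27 was at 1733 and 1854 CPM in stem or multipotent progenitors and at 1645 and 1326 CPM in granulocyte progenitors. Rps27l, a p53 target, was at 381 and 433 CPM and at 406 and 423 CPM, and Rps27rt, a retrogene of Rps27, at 37.1 and 53.4 CPM and at 28.2 and 33.5 CPM. The ends of Rps27 and Rps27rt share sequence, so their counts are uncertain. Rps19bp1, which binds Rps19 and is no ribosome subunit, was at 44.2 and 48.5 CPM in stem or multipotent progenitors and 27.4 and 46.1 CPM in erythroid cells.

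Rpl39l, the paralog of Rpl39 in the peptide exit tunnel, was almost confined to the MYC library. It is a gene at chr16:10170226-10174911 on the plus strand, and its last 300 bases share no 60-base word with another gene. Over all kept cells Rpl39l had 15 control UMIs against 305 MYC UMIs, a 24.3-fold difference in CPM (14.5 to 44.0). Monocytes had 7 and 93 UMIs (9.45-fold, 4.41 to 24.2), and immature neutrophils 2 and 60 (29.9-fold, 7.92 to 252). Granulocyte progenitors had 0 and 40 UMIs and erythroid cells 0 and 30. In these last classes Rpl39l had fewer UMIs than the minimum for calling a feature, so it was not called there. In monocytes and immature neutrophils it reached that minimum through the MYC UMIs. Against a floor of 3 UMIs in the control class, granulocyte progenitors were 15.6-fold and erythroid cells 32.0-fold higher. These folds leave out counting error on the MYC UMIs. Stem or multipotent progenitors had 0 in each library. The UMIs were few beside those of Rpl39, which was at 3138 and 2904 CPM in granulocyte progenitors, where Rpl39l was at 0 and 4.12 CPM. Its window at the start, with the tract in capitals, was as follows, and the tract ends before the annotated start.
Rpl39l (chr16:10170198-10170247, plus): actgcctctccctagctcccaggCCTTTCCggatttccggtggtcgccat

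Rpl3l, the paralog of Rpl3 known from muscle, had its highest level in mature neutrophils. It had 171 of 376 control and 196 of 364 MYC UMIs there, 15.4 and 15.7 CPM. In the other 8 classes of the control together it was at 1.16 CPM. Rpl3 itself was at 107 and 176 CPM in mature neutrophils and 1968 and 3286 CPM in stem or multipotent progenitors. Rpl10l had 0 UMIs in either library.

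Each member's share of the ribosomal protein sum was also compared between a class and the other classes of the same library, which describes the makeup apart from the total. In control mature neutrophils, Rps9, a small subunit protein, stood 1.94 above the other classes on the log2 scale and took 7.09% of the sum. In the MYC library it stood 1.42 above them and took 4.73%. Rps18 and Rps2 had the lowest such values there, -1.66 and -1.41 in the control and -1.09 and -1.23 in the MYC library. Rps9 was at 1731 and 2037 CPM in these cells, where the class's ribosomal protein share was lowest.

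In lymphoid cells the share of Rps27 stood above that in the other classes together, at 0.60 (control) and 0.71 (MYC) in the B lineage and at 0.61 and 0.95 in T or NK cells. Mature neutrophils gave Rps27 a larger share still, 2.32% and 1.26% of the sum, beside 1.42% and 1.02% in the B lineage. Rps27l stood at -1.34 and -1.24 in T or NK cells, and Rpl28, a large subunit protein, at -0.75 and -0.72. In erythroid cells Rps2 stood at 0.76 (control) and 0.49 (MYC), Rpl41 at 0.68 and 0.34, and Rps27 at -0.49 and -0.23. Basophils or mast cells had Rpl10 at 0.68 and 0.53 and Rpl38 at 0.56 in each. Immature neutrophils had Rpl7l1 at 0.98 and 0.74 and Rpl12 at -0.94 and -0.43.

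Monocytes had Rpl10 at 0.46 and 0.32. Granulocyte progenitors had Rpl32 at 0.39 and 0.20 and Rpl22l1 at 0.33 and 0.28, with Rps27rt at -0.85 and -0.64. Stem or multipotent progenitors had Rpl36a at 0.26 and 0.29 and Rpl36al at -0.40 and -0.41. The counts of Rpl10, Rpl36a, Rpl41, Rps18, Rps27 and Rps27rt are uncertain, as more than 50% of the 60-base words of their transcript ends occur in another feature. The same holds for Rpl9 and Rpl35, 8 members in all. These feature pairs were not small throughout: Gm10076, which shares the end of Rpl41, had 56937 UMIs among control cells and 34187 among MYC cells.

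**Figure D4:**
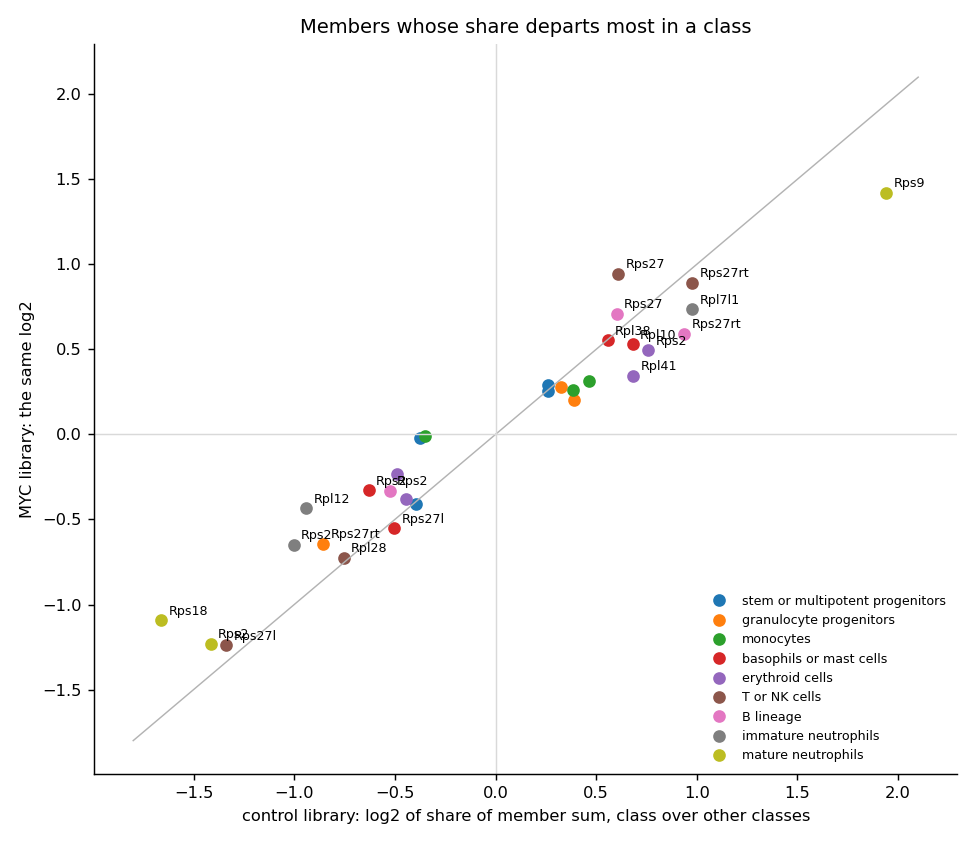
Log2 of a member's share of the ribosomal protein sum in a class over its share in the other classes, in the control library (x axis) and in the MYC library (y axis), for the members that departed most in each class of the control; colours are classes, the grey diagonal marks equal values, and Rpl3l is left out for scale. Rps9 in mature neutrophils lies at 1.94 and 1.42 and Rps18 in the same class at -1.66 and -1.09.

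Other lists of the translation machinery were compared in the same classes. Mitochondrial ribosomal protein genes, 78 in all, had medians between 0.05 and 0.51. In monocytes 29 of 78 were called higher and 0 lower, against 8.19% and 16.7% of all features, with a median of 0.50. In the B lineage 10 were higher and 5 lower, against 7.97% and 43.5% of all features, with a median of 0.05. The 20 elongation factors and other TOP mRNAs had medians from 0.37 to 0.68. Eef1b2, a subunit of the exchange factor of elongation, had the largest ratio in T or NK cells, 0.98, and Pabpc1, the poly(A)-binding protein, the smallest, -0.27.

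Ribosome biogenesis factors, 29 in all, had medians from -0.03 in granulocyte progenitors to 0.53 in monocytes. In monocytes 12 of 29 were called higher and 0 lower, against the 8.19% and 16.7% above, with Nhp2, a protein of pseudouridylation particles, largest at 1.14 and Ubtf, a factor of ribosomal RNA transcription, smallest at -0.29. In granulocyte progenitors 3 were higher and 3 lower, against 4.57% and 25% of all features, with Gar1 at 0.69 and Heatr1 at -0.77. The 12 growth control genes had medians from -0.50 to 0.03. Eif4ebp1, an inhibitor of cap-dependent translation, had the largest ratio of that list in 8 of the 9 classes, from 0.88 in immature neutrophils to 2.38 in the B lineage.

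**Figure D5:**
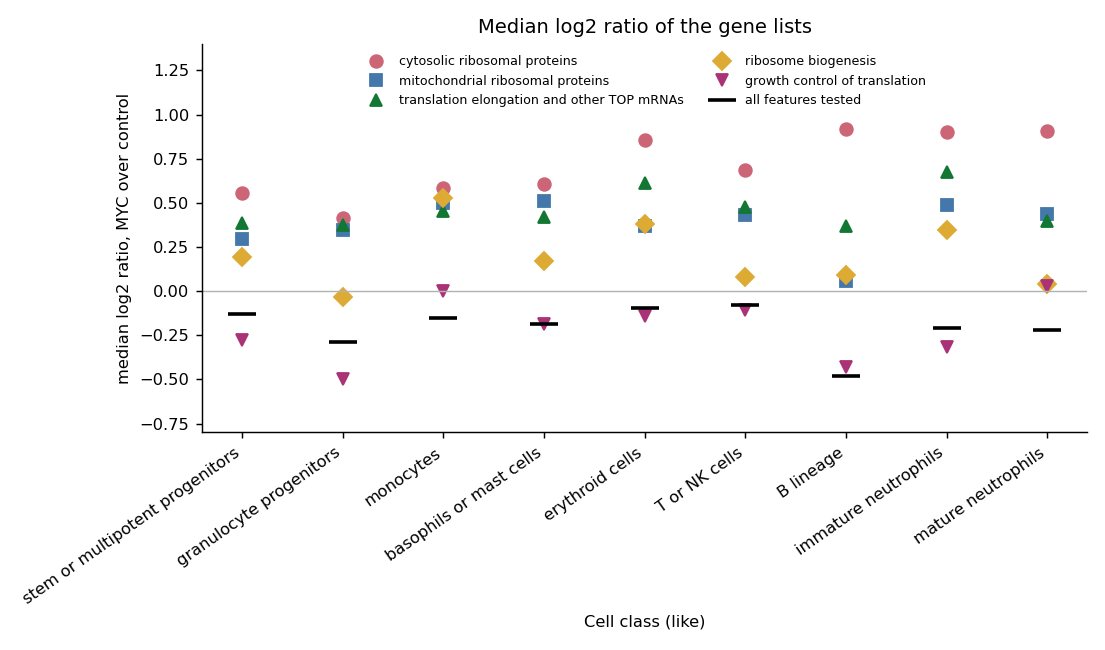
Median log2 ratio of CPM, MYC over control library (y axis), for 5 gene lists and for all features tested (black bars) in the 9 cell classes (x axis). Cytosolic ribosomal proteins have the highest median of the 5 lists in all 9 classes, from 0.42 in granulocyte progenitors to 0.92 in the B lineage, while all features lie between -0.48 and -0.08.

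Fau, which gives a small subunit protein as a fusion with a ubiquitin-like protein, and Rack1, a small subunit scaffold, were near the members' range. Fau had log2 ratios of 0.56 in stem or multipotent progenitors and 0.88 in erythroid cells. Rack1 was at 0.81 in the B lineage.

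UMIs of the feature named MYC, listed beside mouse Myc, were found in 267 of 12540 MYC cells and in 0 of 14903 control cells, a count that allows up to 0.0201% of cells with such a UMI. Cells with a MYC UMI had a ribosomal protein share of 15.5% and cells without one 16.7%, at medians of 7557 and 5963 UMIs. These sets differed in makeup, with 108 mature neutrophils among the 267 cells with a MYC UMI and 2344 among the 12273 without. Within classes the shares were 4.07% in 108 mature neutrophils with and 4.32% in those without a MYC UMI, 7.89% in 38 and 8.89% in other immature neutrophils, and 24.4% in 40 and 24.0% in other monocytes. A cell without a MYC UMI cannot be read as a cell without MYC.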

How the data were processed

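Single bone marrow cells were measured in 1 control and 1 MYC library. The authors deposited gene by cell tables of UMI counts. Per the file headers, Cell Ranger 6.0.0 wrote them; the submitters' processing notes name Cell Ranger 6.0, Seurat, GRCm38 and mm10. The counts were used as deposited. Reads from near-identical gene ends may be split or dropped in such counting, and CPM share a fixed total.

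Cells with at least 500 UMIs, at least 200 genes and under 10% mitochondrial UMIs were kept, and 558 control and 356 MYC cells with a doublet score of at least 0.2 were removed; that score was set after the automatic threshold had marked 0 cells of the MYC library. Both libraries were clustered together (Python 3.11.15, scanpy 1.11.5, igraph 0.11.9; 2000 variable genes, 30 components, 15 neighbours, Leiden resolution 1). Clusters were named from marker genes. Those with a median depth under 33.33% of the library median, with tied markers, or without a marker of their own among the 10 leading genes stayed unnamed, as did those led by MHC class II genes; these rules were completed after the clusters had been seen.

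UMIs were summed per class and library, and features with at least 50 UMIs entered the counts at 1.5-fold. Shares have exact Clopper-Pearson and ratios exact conditional binomial intervals at 95%, for counting error only; the ratios were tested on simulated data. The members, lists and comparisons were chosen with earlier results of these data known. Named genes were the 3 largest and 3 smallest log2 ratios at a mean of at least 100 CPM in classes of at least 200 cells per library, the 5 highest and 3 lowest levels, the 2 members departing most up and down in each class, the paralog pairs, the stalk, Rpl5 and Rpl11, Rps19, Rps14, Rps6, Fau, Rack1, and the ends of each list, some of which are not reported here; Rpl15, Rps2, Rps21 and Rpl41 were added as examples after their values were seen. Positions and coding lengths are from GENCODE vM21, which matched all 86 members by gene ID, and promoters from RefSeq (GRCm38.p6). The alternatives varied resolution, cell filters, doublets, naming, scaling, totals and folds.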

Additional observations from a re-analysis of the deposited data

How the results depend on the processing

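The direction of the summed share did not change in any class under any alternative that gave a value; its lowest log2 ratio was 0.27, in granulocyte progenitors with the libraries clustered apart. No paired analysis was possible because each group has 1 library, and leaving out a replicate was not possible for the same reason. The numbers of core members at least 1.5-fold higher in all 9 classes and in no class, recomputed under settings chosen for this after seeing the data, were 37 in the first set under 5% mitochondrial UMIs, 45 and 1 with median-of-ratios scaling, 45 and 3 at the lower fold tried, and 0 and 35 at 2-fold. They were 17 and 10 with cells named by markers alone. Without Gm42418 in the totals they were 18 and 11, and without the 20 most abundant features 18 and 8. At resolution 2 they were 21 and 10, with means over cells 21 and 7, and with doublets kept 24 and 9. Resolution 0.5, cells of at least 1000 UMIs, shared clusters only and libraries clustered apart did not give all 9 classes. Counts of members called depended on the fold. At the lower fold tried, 47 members were higher in granulocyte progenitors, 67 in monocytes and 58 in stem or multipotent progenitors, and 2 were lower in granulocyte progenitors and 1 in immature neutrophils. Of all features, 13.4%, 18.9% and 17.4% were higher in the former 3 classes at that fold, and 47.1% and 40.2% lower in the latter 2. At 2-fold, 35 members were higher in the B lineage, 7 in basophils or mast cells, 10 in T or NK cells, 29 in erythroid and 22 in early erythroid cells, 33 in mature and 32 in immature neutrophils, 6 in monocytes, 1 in granulocyte progenitors and 4 in stem or multipotent progenitors. In the same order, the shares of all features higher at 2-fold were 3.23%, 1.39%, 2.01%, 4.45%, 4.03%, 2.60%, 2.53%, 1.76%, 0.861% and 1.14%. Granulocyte progenitors had 51 higher under 5% mitochondrial UMIs and 49 with median-of-ratios scaling, against 10.4% and 14.5% of all features. Monocytes had 19 at resolution 0.5, against 6.03%. Stem or multipotent progenitors had 22 without Gm42418 and 24 without the 20 most abundant features in the totals, against 3.51% and 3.71%. With doublets kept, 1 member was lower in immature neutrophils, against 18.3% of all features.

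The change of the large over small subunit ratio also depended on the settings. In granulocyte progenitors it was 0.030 in cells under 5% mitochondrial UMIs and -0.00221 with cells named by markers alone. In stem or multipotent progenitors it was -0.00413 at resolution 2, -0.00110 under 5% mitochondrial UMIs and 0.00270 by markers alone. Immature neutrophils had -0.00193 under 5%, monocytes 0.00290 with libraries clustered apart and late erythroid cells -0.014 with doublets kept. In T or NK cells its interval left out 0 with cells of at least 1000 UMIs (-0.011), under 5% mitochondrial UMIs (-0.018), with core members (-0.011) and with doublets kept (-0.012).

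Some named members with ratios near 0 changed sign. Rpl5 in granulocyte progenitors was below 0 in 6 of 12 alternatives, down to -0.19, and Rpl37a and Rps21 in immature neutrophils were below 0 in 7 of 12 each. Rps27 in mature neutrophils was 0.052 at resolution 0.5, 0.018 at resolution 2, 0.16 with median-of-ratios scaling and 0.040 without the 20 features. Rps27 in monocytes was 0.020 at resolution 2, 0.025 in cells of at least 1000 UMIs and 0.044 with median-of-ratios scaling. Rps21 in monocytes was 0.088, 0.061 and 0.030 under those settings, 0.078 under 5% mitochondrial UMIs and 0.047 by markers alone. Rplp2 in monocytes was -0.032 at resolution 0.5 and -0.00208 without the 20 features. Rplp2 in granulocyte progenitors was 0.11 under 5% and 0.21 with median-of-ratios scaling. Without Gm42418 and without the 20 features, Rplp2 was -0.066 and -0.062 in T or NK cells and -0.057 and -0.046 in stem or multipotent progenitors, and Rpl37a -0.085 and -0.079 in erythroid cells. Without Gm42418, Rpl37a was -0.14, Rpl38 -0.048 and Rps21 -0.080 in the B lineage. Rpl41 was 0.014 under 5% and 0.068 with doublets kept in erythroid cells, and 0.11 with median-of-ratios scaling in mature neutrophils. The cause of these changes was not tested.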
